A study of Mus musculus with 6 samples.

Results

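The AP-1 family of Fos and Jun transcription factor genes was followed in mouse embryonic fibroblasts (MEFs), which are connective tissue cells grown in culture, with WT compared with *Aff3ir-ORF2*-/- cells. All 8 members, *Fos*, *Fosb*, *Fosl1*, *Fosl2*, *Jun*, *Junb*, *Jund* and *Atf3*, were found by gene symbol among the 17092 genes of the table, and all 8 passed the filter on low counts that left 13075 genes. The family was selected on the genotype contrast itself, in which several of its genes were known to be lower, so its values in that contrast are given as a description without a test. Each genotype had 3 libraries. The knockout is global and was made with Cas9 and guide RNAs against the *Aff3ir-ORF2* locus, a nested gene within *Aff3*, and homozygous mice came from crosses of heterozygotes. The MEFs were grown in medium with serum. No flow or other treatment is given in the labels of these libraries, and neither the labels nor the methods say whether the replicates came from separate embryos, so that p-values measure the spread between these libraries, which may be technical.

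AP-1 is a dimer of basic leucine zipper (bZIP) proteins. Jun proteins pair with each other or with Fos proteins, whereas Fos proteins need a Jun partner to bind DNA. *Fos*, *Fosb*, *Jun*, *Junb* and *Atf3* are immediate-early genes, which growth factors, serum and stress induce within minutes without new protein synthesis. *Fosl1* and *Fosl2* follow more slowly and last longer, and *Jund* is present at a steadier level. In fibroblasts AP-1 is known for its part in the response to serum, in proliferation and in the expression of matrix-degrading enzymes.

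Total counts were 17435133 to 17726034 in WT and 18209421 to 18252330 in *Aff3ir-ORF2*-/- libraries. The *Aff3ir* transcript was not analysed here, so the genotypes are those of the labels, also where libraries are called without *Aff3ir-ORF2*. All 12 fibroblast markers on a list were detected in every WT library, and their summed counts took 3.02% to 3.03% of a WT library and 2.56% to 3.30% of an *Aff3ir-ORF2*-/- library. Single markers differed more than that sum. Of the 12, 3 rose and 1 fell past both thresholds, beside 14.3% and 7.32% of all tested genes. *Lum* had a log2 fold change of 2.17 and *Postn* of -1.045. The 20 listed macrophage markers took 0.00248% to 0.00281% in WT and 0.145% to 0.249% in *Aff3ir-ORF2*-/- libraries. All 19 macrophage markers tested were higher past both thresholds, beside 14.3% of all tested genes, and *C1qa* and *C1qb* had 0 counts in every WT library. Of the 20 listed, 10 stayed above 3 counts across WT, while 5 never exceeded 3 there. Tested markers that low in WT could pass the filter on low counts only through the *Aff3ir-ORF2*-/- libraries. A call in the lower direction was thus not open to them, and nothing is read from how many were called. In these bulk samples, fewer cells of a type and less RNA per cell cannot be told apart. The part of such cells in the values below was not tested.

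The promoters of the members are shown first, because immediate-early genes are known to be induced through short elements, many of them close to the start. RefSeq promoters on GRCm38.p6, from 250 bases before to 50 bases after the annotated start, were at hand for 7 members, *Fosl1* being the other. The half-site TGACG of the cAMP response element, read on both strands, lay in 4 of these 7 promoters and in 20.8% of 32851 promoters of the same length. Among other immediate-early genes it lay in 11 of 15 genes with an entry, which have 22 promoters together. That count of genes is not on the scale of the share of promoters. The half-site was chosen after the promoters had been read, so nothing is concluded from how often it occurs. The windows of 30 bases around it are given 5′ to 3′ in the direction of the gene, with the half-site in capitals, and for *Jun* with the related element TGACATCA in capitals:
Fos, plus strand, chr12:85473811-85473840: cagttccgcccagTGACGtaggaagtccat
Fosb, minus strand, chr7:19310089-19310118: atggagttgcgggTGACGcaagcgcggggg
Junb, minus strand, chr8:84978838-84978867: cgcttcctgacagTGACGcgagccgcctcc
Atf3, minus strand, chr1:191183324-191183353: attaatagcattaCGTCAgcctgggattgg
Jun, minus strand, chr4:95052249-95052278: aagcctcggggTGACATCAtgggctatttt

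The half-site began 66 bases before the start in *Fos*, 60 in *Fosb*, 106 in *Junb* and 7 in *Atf3*. In *Atf3* it lies on the opposite strand and so appears as CGTCA in the direction of the gene. *Fos* held another copy 129 bases before the start. The *Jun* element began 45 bases before the start. Its pattern, TGACNTCA, also chosen after the promoters had been read, was found in 8.83% of all promoters and in no other member. The full cAMP response element TGACGTCA, which contains the half-site and matches that pattern, was in 1.79% of all promoters, and the AP-1 site itself, TGACTCA or TGAGTCA, in 5.2%. Neither was present in the 7 promoters of the family. The CArG box, to which serum response factor binds, was in 1.63% of all promoters and in none of the 7. TATAAA was in 13.6% of all promoters and in those of *Fos* and *Junb*. It began 33 bases before the start in *Fos*, but at the annotated start itself in *Junb*. A match is only a run of letters, and elements outside the window were not looked at.

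In the genotype contrast, *Fos*, *Fosb*, *Fosl1*, *Jun* and *Junb* were lower in *Aff3ir-ORF2*-/- MEFs, by 1.62-fold (*Junb*) to 12.3-fold (*Fosb*), while *Fosl2*, *Jund* and *Atf3* differed by less than 1.5-fold. Levels are given in CPM, counts scaled to library size by TMM, as mean ± SD of 3 libraries. *Fosb* encodes a Fos protein that neurons and fibroblasts make briefly after stimulation. WT libraries held 586, 441 and 434 *Fosb* counts, in the order of replicates 1, 2 and 3 that is kept below, whereas *Aff3ir-ORF2*-/- libraries held 46, 41 and 38. Every *Aff3ir-ORF2*-/- library lay far below every WT library, and WT replicate 1 stood above the other WT libraries. The level went from 28.0 ± 5.21 to 2.27 ± 0.234 CPM, a log2 fold change of -3.62 (standard error 0.17), and only 3 of the 13075 tested genes had a lower log2 fold change. The full-length and the truncated *Fosb* protein come from alternative splicing, which these gene counts do not separate.

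*Fos*, the founding member, had far fewer counts than *Fosl1*, *Fosl2* or the Jun genes in both genotypes. WT libraries held 211, 238 and 196 counts and *Aff3ir-ORF2*-/- libraries 94, 86 and 117, without overlap. In CPM, 12.3 ± 1.16 stood against 5.38 ± 0.901, a log2 fold change of -1.20 (standard error 0.14). *Fosl1* encodes Fra-1, the Fos protein that proliferating fibroblasts accumulate under sustained ERK signalling. Its rounded counts were 1685, 1706 and 1728 in WT against 670, 420 and 679 in *Aff3ir-ORF2*-/- libraries. The WT libraries were almost alike, with a coefficient of variation of 0.965%, whereas the *Aff3ir-ORF2*-/- libraries varied by 25.8%, with replicate 2 at 0.611 times the mean of the other two. The level was 97.9 ± 0.945 CPM in WT against 32.1 ± 8.29 CPM, a log2 fold change of -1.61 (standard error 0.15), which was -1.41 without *Aff3ir-ORF2*-/- replicate 2. *Fosl1* was the member whose estimated counts were not whole numbers, in all 6 libraries. Counters give such values where reads match more than a single feature, so its level is less certain than that of the others.

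*Fosl2*, which encodes Fra-2, was the exception among the Fos genes. WT libraries held 4389, 4392 and 4518 counts, and *Aff3ir-ORF2*-/- libraries 4869, 4760 and 5627. After scaling, the genotypes overlapped, at 254 ± 4.39 against 276.5 ± 26.8 CPM, and the log2 fold change was 0.12 (standard error 0.07). With a trend on GC content and transcript length removed, it was -0.0044.

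Among the Jun genes, *Jun* encodes the most potent activator of the family. WT libraries held 3598, 3786 and 3699 counts, those of *Aff3ir-ORF2*-/- 2016, 1590 and 2124, and again replicate 2 was the lowest of the 3. The means were 212 ± 3.35 and 104 ± 16.3 CPM, a log2 fold change of -1.03 (standard error 0.10). *Junb*, a weaker activator that can oppose Jun, was counted at 1935, 1874 and 1714 in WT, against 1201, 1109 and 1285 without *Aff3ir-ORF2*. It was the smallest of the 5 differences, 106 ± 7.11 against 65.2 ± 5.29 CPM, and the log2 fold change was -0.70 (standard error 0.07). *Jund*, the member linked with slow growth and quiescence, stood at 870, 853 and 760 counts in WT, against 938, 1092 and 859 without *Aff3ir-ORF2*. These values overlapped, at 47.5 ± 3.59 and 52.3 ± 5.94 CPM, and the log2 fold change was 0.14 (standard error 0.09).

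*Atf3*, a stress-induced bZIP gene whose protein pairs with Jun proteins, stood at 162, 161 and 149 counts in WT, against 119, 170 and 125 without *Aff3ir-ORF2*. In CPM, replicate 2 of *Aff3ir-ORF2*-/- (9.12) lay within the WT range of 8.53 to 9.40 while the other two lay below it. The level was 9.03 ± 0.448 against 7.49 ± 1.42 CPM, a log2 fold change of -0.27 (standard error 0.14), and -0.44 without that replicate.

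Over all tested genes, an adjusted p (edgeR, quasi-likelihood) under 0.05 and a change of at least 1.5-fold were met by 7.32% of the genes in the lower direction, by 14.3% in the higher direction and by 21.6% in either. Of the 8 members, 5 met both in the lower direction and 0 in the higher. CPM did not overlap between the genotypes for these 5, and for 66.0% of all tested genes. Because this contrast led to the choice of the family, nothing is read from these counts. The median log2 fold change was -0.86 over the 8 members and 0.0056 over all tested genes.

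**Figure D1:**
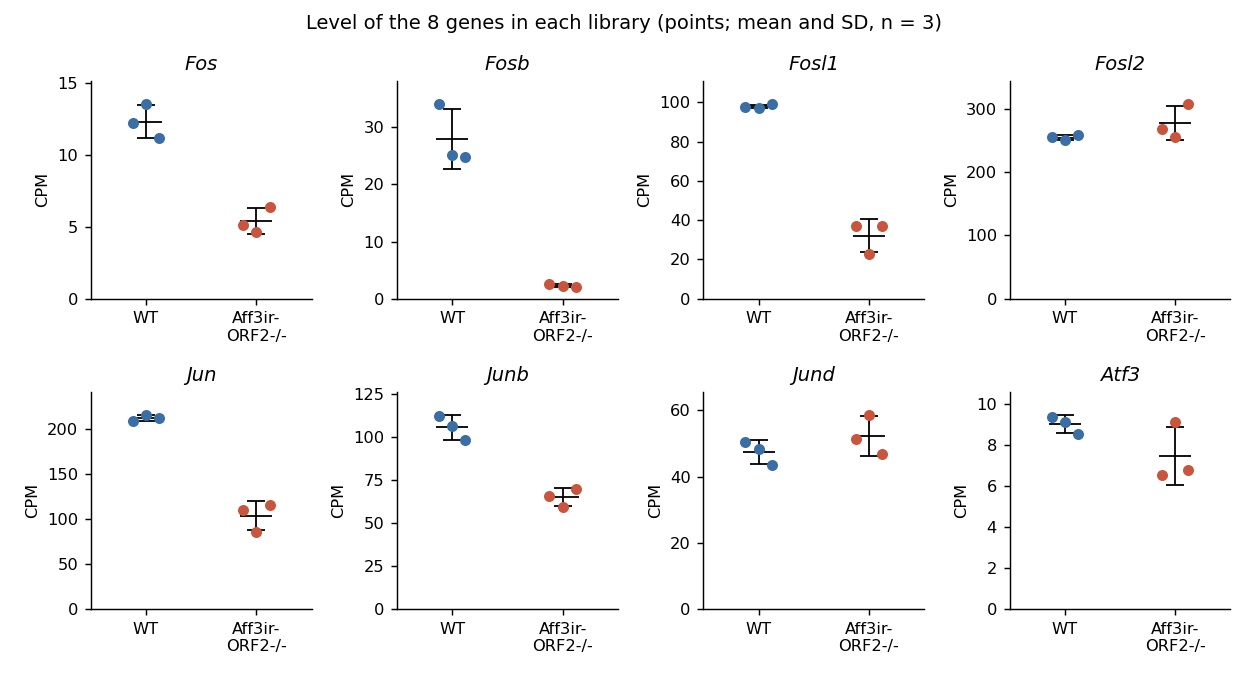
CPM of each member (vertical axis of each panel, from 0) in WT (blue) and *Aff3ir-ORF2*-/- (red) libraries, 3 points a genotype, with bars for mean and SD. The points of *Fos*, *Fosb*, *Fosl1*, *Jun* and *Junb* do not overlap between genotypes, whereas those of *Fosl2*, *Jund* and *Atf3* do.

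Levels of different genes were compared as CPM per kilobase of the longest protein-coding GENCODE M21 transcript, so their order rests on that choice of transcript, which is 1668 bases for *Jund* and 6537 for *Fosl2*. In WT MEFs the highest levels per kilobase were those of *Jun* (66.4 ± 1.05), *Junb* (58.4 ± 3.93) and *Fosl1* (52.5 ± 0.507). The ranges of these 3 did not overlap in the 3 WT libraries, at 65.4 to 67.5, 54.2 to 62.0 and 52.1 to 53.1. *Fosl2* followed at 38.9 ± 0.672 and *Jund* at 28.5 ± 2.15. Far lower were *Fosb* at 7.40 ± 1.38, *Fos* at 5.85 ± 0.551 and *Atf3* at 4.55 ± 0.226. The immediate-early members thus stood at both ends of the order, since *Jun* and *Junb* belong to them too. *Fosb* and *Fos* were neighbours whose levels per kilobase were close but did not overlap, with WT minima and maxima of 6.57 and 8.99 for *Fosb* and of 5.32 and 6.42 for *Fos*.

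The order was different in *Aff3ir-ORF2*-/- MEFs. *Fosl2* came first there, at 42.3 ± 4.10 CPM per kilobase, followed by *Junb* at 36.0 ± 2.93, *Jun* at 32.6 ± 5.11 and *Jund* at 31.4 ± 3.56. The last 3 of these overlapped and have no order beyond their spread. *Fosl1* went from the third to the fifth place, at 17.2 ± 4.45, and *Fosb* from the sixth to the last, at 0.599 ± 0.062. *Atf3* (3.78 ± 0.717) and *Fos* (2.55 ± 0.427) lay between them.

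**Figure D2:**
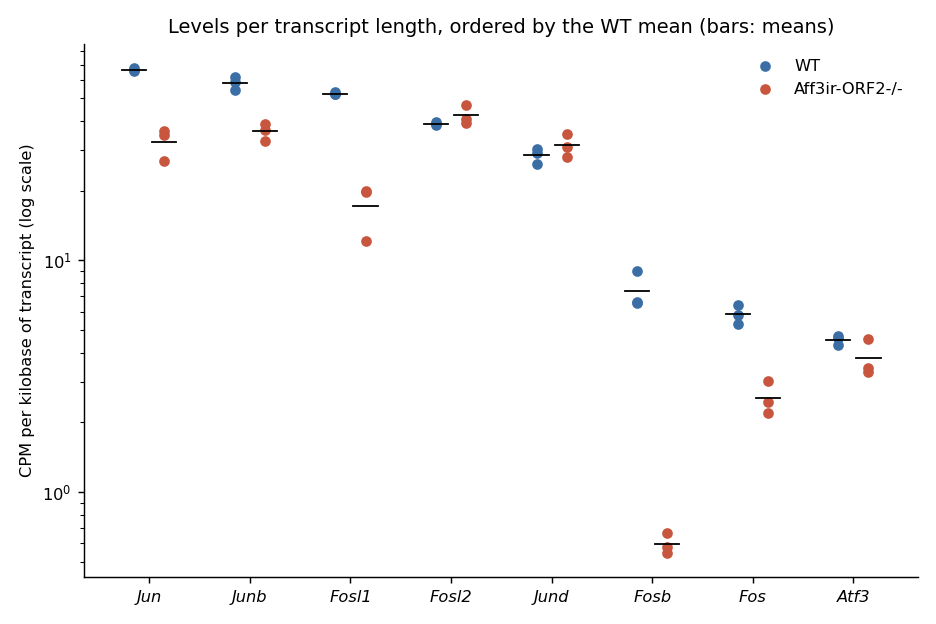
CPM per kilobase of transcript (log scale) of the 8 members, ordered by the WT mean, with each library as a point (blue WT, red *Aff3ir-ORF2*-/-) and a bar for the mean of 3. The genes *Jun*, *Junb*, *Fosl1*, *Fosl2* and *Jund* lie at 12.1 or above in every library, and *Fosb* goes from 7.40 in WT to 0.599, the lowest of all.

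The make-up of the Fos group differed between genotypes. On the scale per kilobase, *Fosl1* made up 50.2% ± 0.714 of the summed level of the 4 Fos genes in WT and 27.2% ± 4.36 in *Aff3ir-ORF2*-/- MEFs, while *Fosl2* made up 37.2% ± 0.608 and 67.8% ± 4.25. The ratio of *Fosl2* to *Fosl1* was 0.743, 0.734 and 0.746 in WT libraries, whereas it was 2.07, 3.23 and 2.36 in those of *Aff3ir-ORF2*-/-. *Fosb* contributed 7.06% ± 1.22 in WT and 0.968% ± 0.165 in *Aff3ir-ORF2*-/- MEFs, and *Fos* 5.59% ± 0.572 and 4.07% ± 0.23. The pair of inducible genes did not keep its proportion. *Fosb* stood at 1.55, 1.03 and 1.23 times the level of *Fos* in the WT libraries and at 0.273, 0.266 and 0.181 times in the *Aff3ir-ORF2*-/- libraries.

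In the Jun group, *Jund* made up 18.6% ± 0.713 in WT and 31.5% ± 5.04 in *Aff3ir-ORF2*-/- MEFs, though its own level overlapped. The share of *Jun* went from 43.4% ± 1.88 to 32.5% ± 3.74, and that of *Junb* was 38.1% ± 1.19 and 36.0% ± 1.44. The ratio of *Jun* to *Jund* was 2.34 ± 0.192 in WT and 1.06 ± 0.272 in *Aff3ir-ORF2*-/- MEFs. Both sums were lower. The summed level per kilobase was 105 ± 1.42 in WT and 62.7 ± 8.25 in *Aff3ir-ORF2*-/- MEFs for the Fos genes, a ratio of 0.599, and 153 ± 5.83 and 99.97 ± 4.51 for the Jun genes, a ratio of 0.652. The Fos sum over the Jun sum was 0.683 ± 0.0256 in WT and 0.625 ± 0.0567 in *Aff3ir-ORF2*-/- MEFs, and its values overlapped. Without *Fosl2*, the Fos sum was 65.8 ± 1.26 against 20.4 ± 4.78, a ratio of 0.31.

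**Figure D3:**
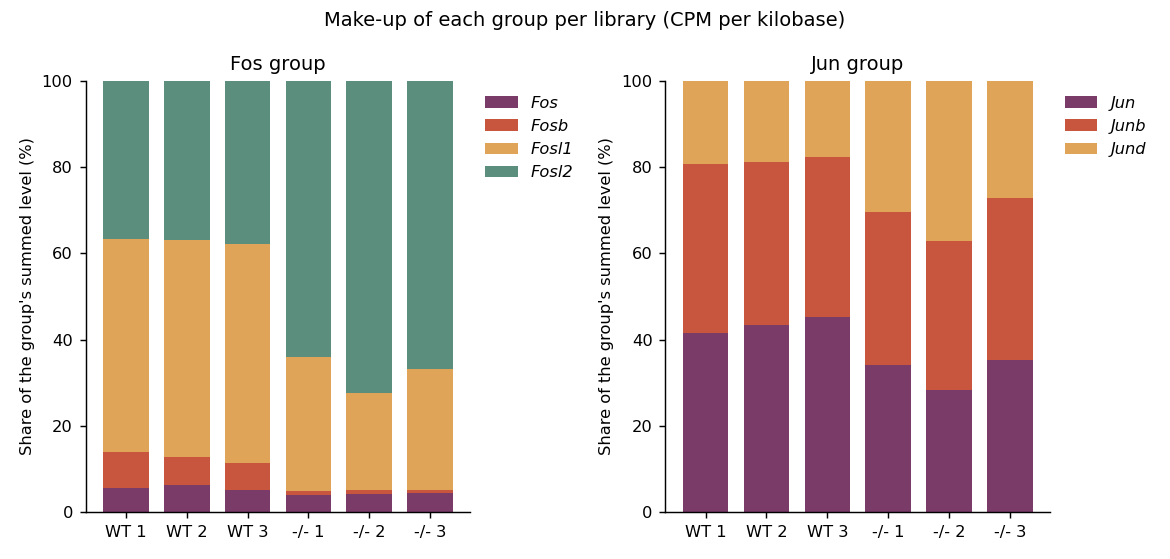
Share (%) of each gene in the summed CPM per kilobase of the 4 Fos genes (left) and the 3 Jun genes (right), 1 bar a library, WT replicates 1 to 3 and then *Aff3ir-ORF2*-/- replicates 1 to 3. *Fosl2* takes 36.7% to 37.9% of the Fos bars in WT and 64.2% to 72.4% in *Aff3ir-ORF2*-/- libraries, and *Jund* 17.8% to 19.2% and 27.2% to 37.1% of the Jun bars.

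The median coefficient of variation of the members was 5.85% in WT and 13.6% in *Aff3ir-ORF2*-/- MEFs, beside 3.49% and 6.37% over the 10293 tested genes with a mean of at least 100 counts. These sets were not matched for level, on which the coefficient depends, so their difference is not read as a trait of the members. *Aff3ir-ORF2*-/- replicate 2 was the lowest of its genotype for *Fos*, *Fosl1*, *Fosl2*, *Jun* and *Junb*, and the highest for *Jund* and *Atf3*. For *Jun* it stood at 0.754 times the mean of the other two, and for *Atf3* at 1.37 times. The summed macrophage markers took 0.145%, 0.205% and 0.249% of the counts of these libraries. *Lyz2* made up most of that sum, with 14471, 20237 and 25195 counts. Most of the other tested markers were highest in replicate 3 as well, among them *Csf1r* (637, 979 and 1185) and *C1qb* (235, 488 and 550). Only *C1qa* (234, 567 and 479), *C1qc* (290, 617 and 540) and *Adgre1* (552, 935 and 880) were highest in replicate 2. The summed fibroblast markers took 2.73%, 3.30% and 2.56%, highest in replicate 2. The 12 markers did not all follow that sum. *Col1a1*, for example, stood at 88599, 119319 and 82003 counts. Only *Vim* (64394, 58766 and 62983) and *S100a4* (8322, 6701 and 8068) were lowest in replicate 2, and the others were highest there. The part of these cells in the spread of the members was not tested.

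The genes most like *Fosb* over the 6 libraries, by Euclidean distance of log2 CPM centred on the WT mean, were *Egr2* (distance 0.513), *Egr3* (0.578) and *Oasl1* (1.10). *Egr2* and *Egr3* encode zinc finger factors that are immediate-early genes too. *Egr2* stood at 861, 896 and 867 counts in WT, against 90, 62 and 81 without *Aff3ir-ORF2*. *Oasl1*, an interferon-stimulated gene with a close paralog that could share its reads, was at 52, 54 and 56 against 2, 6 and 5 counts. Nearest to *Fos* were *Map2* (distance 0.137), *Trib1* (0.20) and *Jag1* (0.207), which encode a microtubule-associated protein, a pseudokinase and a Notch ligand. Many genes differ between the genotypes, so a small distance over 6 libraries mostly says that the size of that difference is alike.

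Of 23 other immediate-early genes on a list that was put together with earlier results of these data known, 22 were tested, and 16 of them (72.7%) fell past both thresholds while 0 rose, with a median log2 fold change of -1.03. The lower direction was called for 7.32% of all tested genes, as given above. Because those earlier results were known, nothing is read from the share of this list. The adjusted p-values of its genes are given as a description. The 4 with the smallest adjusted p were *Egr2*, *Egr3*, *Egr1* and *Myc*. *Egr2* fell by 3.57 on the log2 scale (standard error 0.11, adjusted p = 2.91e-07, edgeR). *Egr3* fell by 3.47 (adjusted p = 3.00e-07) and *Egr1* by 2.89 (adjusted p = 5.26e-07). *Myc*, a growth-promoting transcription factor, went from 145 to 58.0 CPM, and its log2 fold change was -1.32 (adjusted p = 2.88e-06). The most abundant listed genes that did not pass both thresholds were *Ccn2*, a matricellular protein gene, at -0.55 (standard error 0.12), and *Klf4*, a zinc finger factor, at -0.12 (standard error 0.05). *Ccn2* passed both without *Aff3ir-ORF2*-/- replicate 1 (-0.64) or replicate 3 (-0.63). *Dusp1*, a phosphatase of MAP kinases that was named after its values were seen, fell by 0.59 (standard error 0.20, adjusted p = 0.0304), but its call was lost when any WT replicate was left out (adjusted p of 0.0645 to 0.0901), and without *Aff3ir-ORF2*-/- replicate 2 the change was under 1.5-fold (-0.36).

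RNA of genes whose proteins pair or compete with Fos and Jun proteins moved in both directions. Of 16 listed bZIP genes, 14 were tested, 4 rose and 1 fell past both thresholds (35.7%, beside 21.6% of all tested genes), with a median log2 fold change of 0.0061. Earlier results of these data were known when this list was made, so nothing is read from its share. *Maf*, a large Maf factor, stood at 83, 60 and 69 counts in WT, against 246, 377 and 357 without *Aff3ir-ORF2*, and rose by 2.13 on the log2 scale (standard error 0.19, adjusted p = 3.01e-05, edgeR). *Ddit3*, the stress factor CHOP, rose by 0.82 (adjusted p = 7.74e-04). *Batf*, which rose too and was named after its values were seen, was at 16, 9 and 14 counts against 29, 26 and 36, a log2 fold change of 1.14 (adjusted p = 0.00833). *Maf* and *Batf* are also expressed by macrophages and other leukocytes, and the macrophage markers rose in the same libraries. The part of such cells in these changes was not tested. The gene that fell was *Creb5*, from 14.3 to 7.54 CPM, which decreased by 0.92 on the log2 scale (standard error 0.11, adjusted p = 1.33e-04). The most abundant that did not pass both thresholds were *Nfe2l1*, at 0.35, and *Atf4*, at -0.12. *Batf2* and *Batf3* had 3 counts or fewer in every library.

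The factors and kinases that act on AP-1 genes, RNA or proteins passed the thresholds in 4 of 33 genes tested (12.1%), all 4 lower and 0 higher, beside 7.32% of all tested genes called lower and 21.6% called in either direction, with a median log2 fold change of -0.11. Their list, too, was made with earlier results of these data known, and nothing is read from its share. *Srf*, the serum response factor that drives *Fos* and *Egr* genes through the CArG box, stood at 3145, 3127 and 3076 counts in WT, against 1846, 1483 and 1787 without *Aff3ir-ORF2*. It fell by 0.95 (standard error 0.08, adjusted p = 2.68e-05, edgeR). *Elk4*, a partner of that factor on *Fos*, fell by 0.73 (adjusted p = 9.90e-04). *Rps6ka5*, the kinase MSK1 downstream of ERK and p38, fell by 1.05 (adjusted p = 5.43e-05), and *Hnrnpd*, a protein that binds AU-rich elements such as those of the *Fos* mRNA, fell by 0.70 (adjusted p = 9.94e-05). Among the most abundant of the others, *Zfp36l2*, which promotes decay of such mRNAs, was at -0.29 (standard error 0.06).

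Known AP-1 targets did not move one way. Of 24 listed and tested, 8 rose and 3 fell past both thresholds (45.8%, beside 21.6% of all), with a median log2 fold change of 0.16. Over all tested genes, 14.3% were called higher and 7.32% lower. This list was also put together with earlier results of these data known, so nothing is read from its share. *Timp1*, an inhibitor of matrix metalloproteinases, went from 228 to 492 CPM, and so rose by 1.11 on the log2 scale (standard error 0.07, adjusted p = 5.35e-06, edgeR). *Spp1*, which encodes osteopontin, rose from 7954, 8311 and 8264 counts to 30740, 46417 and 31288, a log2 fold change of 2.06 (adjusted p = 8.00e-06). *Hmox1*, the inducible heme oxygenase, rose by 1.03 (adjusted p = 3.46e-05) and the chemokine *Ccl2* by 0.64 (adjusted p = 8.56e-05). The change of *Ccl2* was just under 1.5-fold without WT replicate 3 (0.58) or *Aff3ir-ORF2*-/- replicate 2 (0.58). *Spp1* and *Hmox1* are also high in macrophages, whose markers rose in the same genotype. Over the *Aff3ir-ORF2*-/- replicates *Hmox1* stood at 5777, 4975 and 6563 counts, against 2690, 2626 and 2734 in WT. The part of macrophages in these 2 changes was not tested.

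The 3 targets that fell, named after their values were seen, were *Hbegf*, *Ptgs2* and *Plaur*, an EGF receptor ligand, the inducible cyclooxygenase and the urokinase receptor. *Hbegf* stood at 2444, 2473 and 2534 counts in WT, against 1274, 673 and 1294 without *Aff3ir-ORF2*, and fell by 1.28 on the log2 scale (standard error 0.20, adjusted p = 7.88e-04, edgeR). *Ptgs2* fell by 1.13 (adjusted p = 0.00319) and *Plaur* by 0.78 (adjusted p = 0.00448). As with *Fosl1* and *Jun*, *Aff3ir-ORF2*-/- replicate 2 was the lowest library for *Hbegf*, *Plaur* and *Ptgs2* (6720, 3690 and 8140 counts). Without that replicate the log2 fold change was -1.025 for *Hbegf* and -0.86 for *Ptgs2*, and that of *Plaur* was under 1.5-fold (-0.57). Among the most abundant targets that did not pass both thresholds, *Il1rl1*, the receptor of IL-33, was at -0.46 (standard error 0.08). Without *Aff3ir-ORF2*-/- replicate 2, 8 targets passed both thresholds in place of 11.

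**Figure D4:**
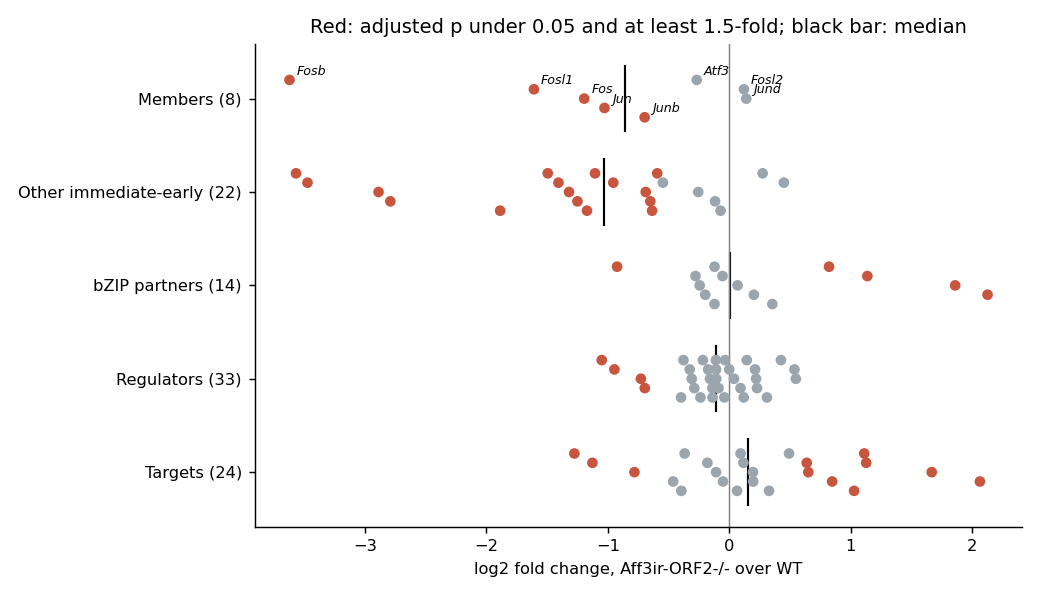
Log2 fold change (horizontal axis, *Aff3ir-ORF2*-/- over WT) of the 8 members and of the tested genes of 4 lists, 1 point a gene, red where both thresholds were met, with a black bar at each median. The median is -0.86 for the members and -1.03 for the other immediate-early genes, and 0.0061, -0.11 and 0.16 for bZIP partners, regulators and targets; the members are shown as a description.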

How the data were processed

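The authors had paired-end DNBSEQ reads filtered with SOAPnuke and deposited an estimated count per gene and library, without normalization. The aligner and counter are not given in the sources used here, and the submitters' processing notes name the build mm8, so the GRCm38.p6 coordinates printed are those of the RefSeq promoters only. Between 10.6% and 11.3% of a library's values were not whole, and all were rounded. Genes were filtered with filterByExpr (minimum count 10, total 15), scaled by TMM and tested with edgeR 4.0.16 (R 4.3.3), with Benjamini-Hochberg adjustment. The standard error is the log2 fold change over the square root of F. Transcript lengths and GC content came from GENCODE M21 for 98.3% of tested genes, matched by gene ID. Alternatives used limma 3.58.1 and DESeq2 1.42.0, and figures matplotlib 3.10.9. Functions were tested on simulated data.

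The members, lists and motifs were chosen with earlier results of these data known, and the motifs TGACG and TGACNTCA after the promoters had been read. From each list, up to 4 genes past both thresholds by adjusted p and 2 others by counts are named, except for a few that are not reported here. Alternatives were other scalings, filters and tools, a replicate block and each library left out.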

Additional observations from a re-analysis of the deposited data

How the results depend on the processing

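The sign of each member's log2 fold change was kept under all 15 alternatives (other scalings, filters and tools, the replicate block, each library left out, and a trend on GC content and length removed), except for *Fosl2*, which went to -0.0044 with that trend removed. *Fosb* ranged from -3.82 to -3.46, *Fosl1* from -1.82 to -1.41, *Fos* from -1.38 to -1.10, *Jun* from -1.24 to -0.91, *Junb* from -0.87 to -0.64, *Atf3* from -0.46 to -0.18, *Fosl2* up to 0.17 and *Jund* from 0.041 to 0.21. With a 2-fold threshold, 1420 genes were called over all genes in place of 2822, since the threshold is stricter. It left 4 members in place of 5 and 11 other immediate-early genes in place of 16. Partners went to 3 in place of 5, regulators to 1 in place of 4 and targets to 7 in place of 11. With a replicate block, 2845 genes were called and the counts of members and of the 4 lists were 5, 5, 4, 11 and 16, as without it; the numbers were not taken to pair the libraries, since deviations of same-numbered libraries correlated at only 0.0354, 0.0415 and 0.0142. *Dusp1* also lost its call with upper quartile scaling, total counts only, the stricter count filter and DESeq2's test. No other gene named from a list changed its call under scalings, filters or tools, though *Batf* was not tested under the stricter filter. With 3 libraries a genotype, differences near 1.5-fold are not settled.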
